A study of Mus musculus with 30 samples.

Results

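The mouse genes Hmox1, Hmox2, Blvra, Blvrb, Hp, Hpx, Lrp1 and Cd163 encode the proteins that break down heme and clear hemoglobin and free heme from plasma. They were found by the gene name printed in the array files, which gave 9 probes of 7 genes. Hpx is listed there under its older name Hpxn and was added through its RefSeq transcript, which made 10 probes of 8 genes among 41174 probes. All 8 genes were among the 21071 genes tested, through 9 probes above background. The second Blvra probe was well above background on 0 of 30 arrays and is given no value here. RNA from the livers of 30 mice was hybridized to Agilent whole mouse genome arrays in 1 colour, each array holding 1 mouse. The mice were of the inbred strains C57BL/6 (B6) and DBA/2 (D2). They were fed an iron-deficient diet (less than 3 mg of iron per kg), an iron-balanced diet (200 mg per kg) or an iron-enriched diet (8.3 g per kg), with 5 mice in each of the 6 groups. No other genotype or agent is named, and the labels used here state no age, sex or length of feeding.

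Heme is opened by heme oxygenase, of which Hmox1 is the inducible form and Hmox2 the constitutive form, and iron, carbon monoxide and biliverdin are released. In the adult, Blvra is the main enzyme that reduces this biliverdin to bilirubin, which the liver conjugates and secretes into bile. Blvrb is also named a biliverdin reductase, and it reduces flavins. The plasma proteins haptoglobin (Hp) and hemopexin (Hpx), both made by hepatocytes and both acute phase proteins, bind free hemoglobin and free heme. Cd163 on macrophages takes up haptoglobin with hemoglobin, and Lrp1 on hepatocytes and macrophages takes up hemopexin with heme.

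The stretches before the start of 3 members are shown because these genes differed between the strains in both directions, Hpx and Blvra being higher in D2 and Blvrb lower. They are C57BL/6J sequence from RefSeq (GRCm38.p6), 5′ to 3′ on the strand of the gene, at chr7:105600117-105600366 (minus strand) for Hpx, chr2:127070407-127070628 (plus strand) for Blvra and chr7:27447728-27447977 (plus strand) for Blvrb. Blvrb has another annotated start, and the stretch before it, at chr7:27452168-27452417 (plus strand), is not printed. Capitals mark matches to any of the motifs named below.
Hpx: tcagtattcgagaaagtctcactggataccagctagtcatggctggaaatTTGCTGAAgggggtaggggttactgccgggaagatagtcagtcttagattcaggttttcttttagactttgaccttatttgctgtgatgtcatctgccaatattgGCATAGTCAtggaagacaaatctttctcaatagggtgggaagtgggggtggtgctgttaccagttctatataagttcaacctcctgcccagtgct
Blvra: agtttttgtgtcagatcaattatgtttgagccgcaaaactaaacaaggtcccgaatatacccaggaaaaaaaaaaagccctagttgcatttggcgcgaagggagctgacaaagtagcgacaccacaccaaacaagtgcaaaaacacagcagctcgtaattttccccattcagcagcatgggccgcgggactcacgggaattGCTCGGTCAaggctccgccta
Blvrb: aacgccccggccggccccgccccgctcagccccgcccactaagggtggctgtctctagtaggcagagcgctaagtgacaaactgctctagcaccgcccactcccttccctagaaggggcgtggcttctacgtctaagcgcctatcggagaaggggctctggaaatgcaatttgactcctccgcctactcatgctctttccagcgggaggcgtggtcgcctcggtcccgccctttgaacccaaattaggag

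Motifs were searched on both strands in the 250 bases before each of 32851 RefSeq starts, namely TGACNNNGC (the core of the antioxidant element, which Nrf2 and Bach1 bind with small Maf proteins), TTCNNNGAA (the STAT type) and TTGCNNAA (the C/EBP type). Of the 8 members, 6 had such a window, with 9 windows among them, and Hmox1 and Hp were not searched. The windows of Blvra and Cd163 were cut before the first annotated base of the gene, to 222 and 235 bases. The shares of all windows below are from uncut windows. The antioxidant core matched in 1 window each of Hpx, Blvra and Lrp1, and 10.2% of all windows held it. The C/EBP type matched in Hpx (9.56% of all windows) and the STAT type in Lrp1 (7.02% of all windows). No 2 matches overlapped. A match describes the letters alone, and D2 sequence was not used here.

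Each of the 8 main probes was well above background on 30 of 30 arrays and saturated on 0, with a value for every mouse. Every member except Lrp1 rests on 1 probe above background. Probe sequences were not used for any gene. Whether a probe, of a member or of another gene, reads both strains alike was not tested. Levels below are log2 of the quantile-normalized intensity, and differences are on the same log2 scale, so that 1 is a 2-fold change. All 6 hepatocyte markers on the list, Alb and Ttr among them, passed the filter on dim probes, and the log2 of their summed level was 20.31 to 20.50 over the 30 mice. Between 63.1% and 78.8% of probes were well above background on an array, and precision is limited by how many arrays there are. The arrays came from 10 slides and 3 scan days of 5, 11 and 14 arrays, and no B6 mouse of the deficient or the enriched diet was scanned on the first day. A group had 0 to 4 mice on a scan day, and often 1, so that a value within a day is a description and its failure to pass says little. In whole liver, fewer cells of a type and less RNA per cell cannot be told apart.

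**Figure D1:**
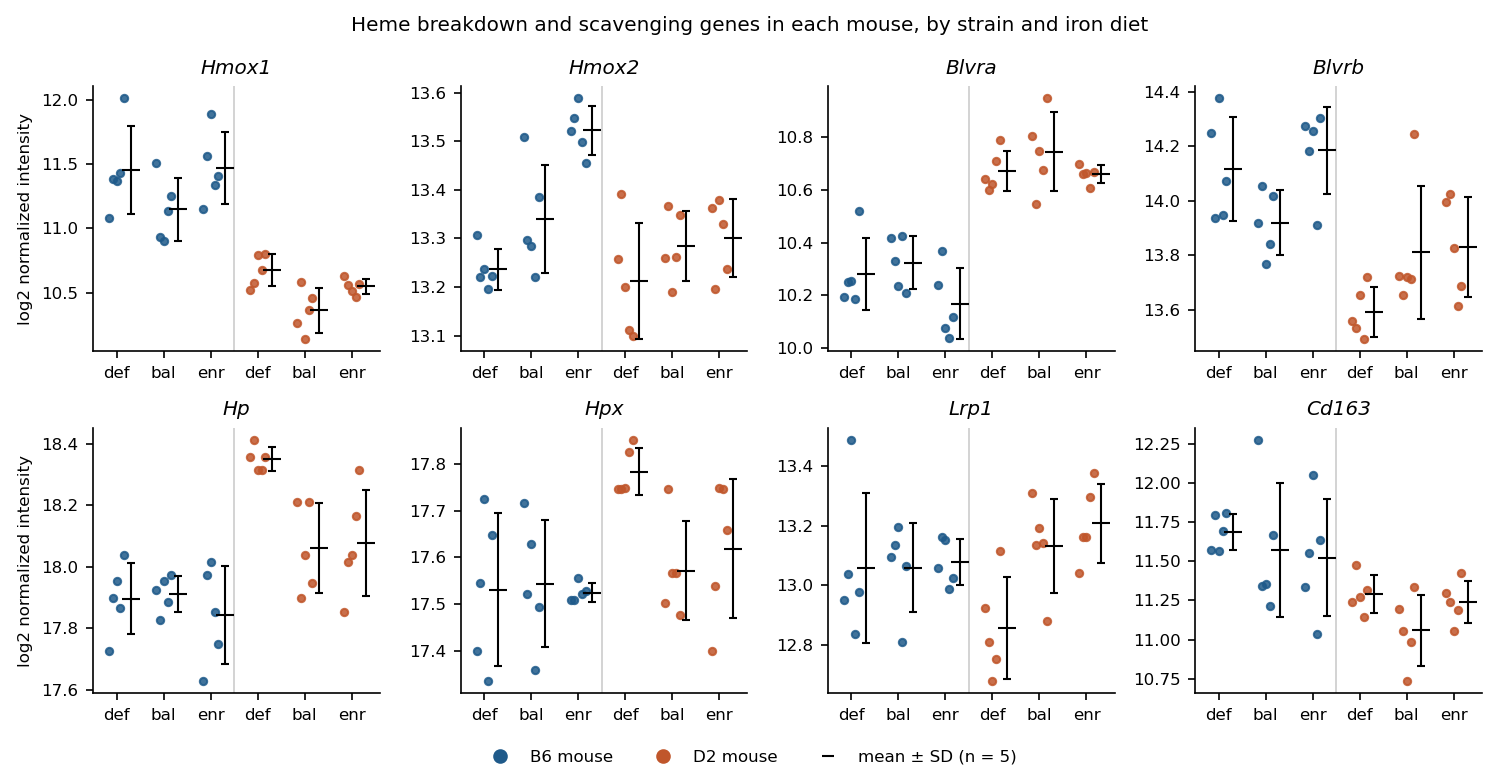
Log2 normalized intensity (y axis) of the 8 genes in each mouse of the deficient (def), balanced (bal) and enriched (enr) diet, with B6 at the left and D2 at the right of each panel. Dots are mice and bars are the mean ± SD of 5 mice. The strains do not overlap for Hmox1 and Blvra, and for Hp the D2 mice on the deficient diet (18.31 to 18.41) lie above those on the balanced diet.

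More members passed between the strains than between diets. Averaged over diets, 7 of the 8 genes passed the test between D2 and B6 (limma, Benjamini-Hochberg adjusted p under 0.05), where 50.1% of all tested genes did. In D2, Blvra, Hp and Hpx were higher, a direction called for 25.9% of all genes, and Hmox1, Hmox2, Blvrb and Cd163 were lower, a direction called for 24.2%. Lrp1 did not pass through its brighter probe. The median size of the difference was 0.30 over the 8 genes and 0.21 over all tested genes, but it was 0.13 and 0.23 on the balanced diet, 0.26 and 0.27 on the enriched diet and 0.39 and 0.22 on the deficient diet. On the balanced, enriched and deficient diet taken alone, 3, 5 and 5 members passed, where 30.1%, 35.5% and 28.4% of all genes did. The groups did not overlap for 2, 3 and 6 members, where 19.1%, 27.7% and 20.6% of all genes did not.

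**Figure D2:**
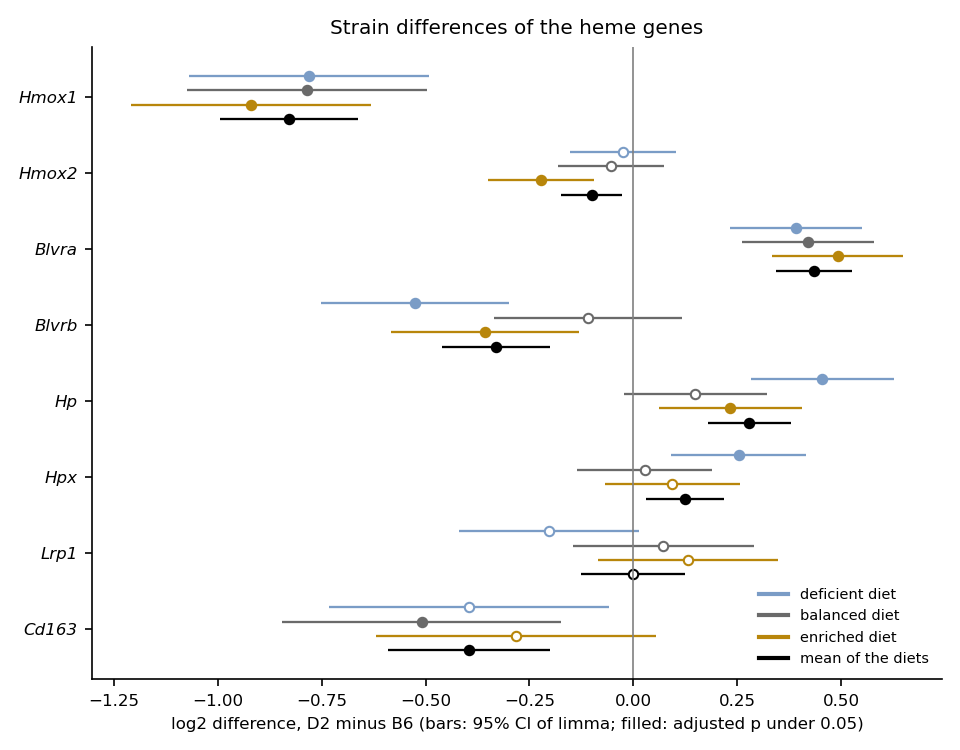
Log2 difference of D2 minus B6 (x axis) for each gene on each diet and for the mean of the diets, with the 95% confidence interval of limma as bars. Filled points have an adjusted p under 0.05. Hmox1 lies between -0.92 and -0.78 on every diet, and Blvra between 0.39 and 0.49.

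Hmox1, the inducible heme oxygenase, was 1.78-fold lower in D2. The 15 B6 mice had log2 levels of 10.90 to 12.01 with a median of 11.37, and the 15 D2 mice 10.14 to 10.80 with a median of 10.56. Every D2 mouse lay below every B6 mouse, and 7.15% of all genes separated the strains this fully. The difference was -0.83 (limma SE 0.081, adjusted p = 1.69e-09), and it was -0.78, -0.92 and -0.78 on the balanced, enriched and deficient diet. It was -1.03 among the mice of scan day 2 and -0.69 among those of scan day 3. Hmox2, the constitutive form, differed less. Its difference was -0.10 over the diets (SE 0.036, limma adjusted p = 0.0207), with 12 of 15 D2 mice below the B6 mean. On the enriched diet alone it was -0.22 (limma adjusted p = 0.00578), and the groups of 5 did not overlap there. After scaling each array by its 75th percentile the Hmox2 difference over the diets was -0.05 and no longer passed (limma adjusted p = 0.306), and within scan days 2 and 3 it was -0.17 and -0.08, neither passing.

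Both biliverdin reductases differed between the strains, in opposite directions. Blvra, the main reductase of biliverdin in the adult, had log2 levels of 10.04 to 10.52 in B6 and 10.55 to 10.95 in D2, so the strains did not overlap. The difference was 0.43 (SE 0.044, limma adjusted p = 3.62e-09), or 1.35-fold higher in D2, and it was 0.42, 0.49 and 0.39 on the balanced, enriched and deficient diet. Within scan days 2 and 3 it was 0.34 and 0.53. Blvrb, which also reduces flavins, ranged from 13.77 to 14.38 in B6 and from 13.49 to 14.24 in D2. The strains overlapped, and 14 of 15 D2 mice lay below the B6 mean. Its difference was -0.33 (SE 0.063, limma adjusted p = 8.23e-05). On the deficient diet Blvrb was -0.53 (limma adjusted p = 0.000534) with no overlap between the groups, on the enriched diet -0.36 (limma adjusted p = 0.0122), and on the balanced diet -0.11, which did not pass (limma adjusted p = 0.520). Without D2 balanced mouse 5, the highest of its group, the balanced value was -0.22 (limma adjusted p = 0.106). The enriched value was -0.26 with slide and also with scan day as a block, and passed with neither (limma adjusted p = 0.107 and 0.0522). Within scan days 2 and 3 the Blvrb difference was -0.37 and -0.13, and the latter did not pass.

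The 2 plasma scavengers were higher in D2. Hp, the hemoglobin binder, ranged from 17.63 to 18.04 in B6 and from 17.85 to 18.41 in D2, and 14 of 15 D2 mice lay above the B6 mean. The difference was 0.28 (SE 0.048, limma adjusted p = 2.14e-05), and it was 0.15, 0.23 and 0.45 on the balanced, enriched and deficient diet, of which the last 2 passed. Without any 1 of the B6 enriched mice 1 or 5 or the D2 enriched mice 4 or 5, the difference on the enriched diet fell to between 0.17 and 0.21 and no longer passed. It passed in 8 of 14 other settings, and not with slide as a block (0.19), scan day as a block (0.15) or no normalization between arrays (0.17). Within scan days 2 and 3 the difference over the diets was 0.19 and 0.23, and the former did not pass. Hpx, the heme binder, differed by 0.13 (SE 0.046, limma adjusted p = 0.0237), with 12 of 15 D2 mice above the B6 mean. On the deficient diet its difference was 0.25 (limma adjusted p = 0.0159) and the groups did not overlap, and without B6 deficient mouse 4 it was 0.20 (limma adjusted p = 0.0627). The Hpx difference over the diets was 0.03 with no normalization between arrays, 0.08 with cyclic loess and 0.09 with scan day as a block. It passed in none of these, nor with slide as a block. Within scan days 2 and 3 it was 0.13 and 0.08, neither passing.

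Other acute phase genes moved with the scavengers. The list of 19 holds neither Hp nor Hpx. In D2, 11 of them were called higher and 2 lower over the diets, where 25.9% and 24.2% of all genes were. The median difference of the 19 was 0.28 beside -0.01 over all genes. The largest were Apcs (serum amyloid P) with 2.73, Fga (a fibrinogen chain) with 1.59, Saa3 with 1.06 and Saa2 with 0.97. Saa1 and Saa2 are near-identical, so their separate levels are uncertain. The part of these genes' difference in that of Hp and Hpx was not tested.

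Of the receptors, Cd163 was lower in D2. Its log2 level was 11.04 to 12.27 in B6 with a median of 11.57, and 10.73 to 11.47 in D2 with a median of 11.24. The ranges overlapped, and 15 of 15 D2 mice lay below the B6 mean. The difference was -0.40 (SE 0.095, limma adjusted p = 0.000928). On the balanced diet it was -0.51 (limma adjusted p = 0.0188), and it did not pass there without B6 balanced mouse 1, the highest of all mice at 12.27, when it was -0.33 (limma adjusted p = 0.0845), or without D2 balanced mouse 3, when it was -0.43 (limma adjusted p = 0.0635). On the enriched and deficient diet it was -0.28 and -0.40, neither passing. Within scan days 2 and 3 the Cd163 difference over the diets was -0.75 and -0.25, and the latter did not pass.

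Lrp1, the hemopexin receptor, gave different answers from its 2 probes. The brighter one (A_51_P193794) ranged from 12.81 to 13.49 in B6 and from 12.68 to 13.38 in D2, and its difference was 0.00 with a 95% interval of -0.13 to 0.13. The dimmer one (A_52_P202045) was -0.77 (SE 0.14, limma adjusted p = 2.51e-05 over 29986 probes). On the balanced diet the dimmer probe read 10.44, 10.58, 10.28, 10.48 and 10.45 in the B6 mice and 9.72, 9.84, 9.72, 8.95 and 8.59 in the D2 mice. These groups did not overlap, and 2 of the D2 mice were far below the other 3. On the balanced and enriched diet its difference was -1.08 and -0.99, while on the deficient diet it was -0.24 and did not pass (limma adjusted p = 0.523). Whether a strain difference of Lrp1 over the diets passed depends on the probe. The sequences of the probes were not used here.

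**Figure D3:**
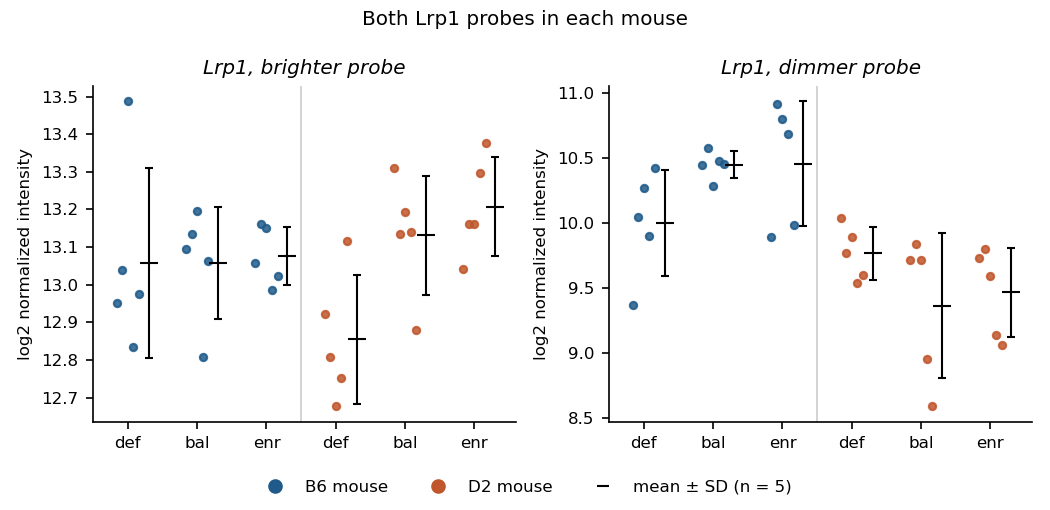
Log2 normalized intensity (y axis) of the brighter and the dimmer Lrp1 probe in each mouse by diet (def, bal, enr), with the mean ± SD of 5 mice. The strains overlap at the brighter probe on every diet, and they do not overlap at the dimmer probe on the balanced and enriched diets.

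Markers of macrophages, the cells that carry Cd163 and that express Hmox1 strongly in liver, moved with these genes. All 12 markers on the list were lower in D2 over the diets, with a median difference of -0.63 beside -0.01 over all genes. On the balanced, enriched and deficient diet 12, 9 and 12 of them passed, where 30.1%, 35.5% and 28.4% of all genes did. Over the diets 24.2% of all genes were called lower and 25.9% higher, which also stands beside the counts of other cell markers below. Folr2 at -4.74, Marco at -1.11, Adgre1 at -0.94 and C1qc at -0.90 had the largest differences. The log2 of the summed level of the 12 markers ran from 15.80 to 16.87 in B6 and from 15.13 to 15.67 in D2, so the strains did not overlap. Without Folr2, chosen after its values were seen, the ranges were 15.77 to 16.84 and 15.13 to 15.67. Endothelial markers were lower too (8 of 8, median -0.27), while of 6 hepatocyte markers 2 were higher and 1 lower. Neutrophil markers were higher for 1 and lower for 0 of 5, lymphocyte markers higher for 1 and lower for 1 of 6, stellate cell markers higher for 1 and lower for 1 of 7, and bile duct markers lower for 3 of 5. Of the 6 red cell markers 3 were tested, with 1 higher and 0 lower. The part of macrophage content in the Hmox1 and Cd163 differences, and in that of the dimmer Lrp1 probe, was not tested.

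**Figure D4:**
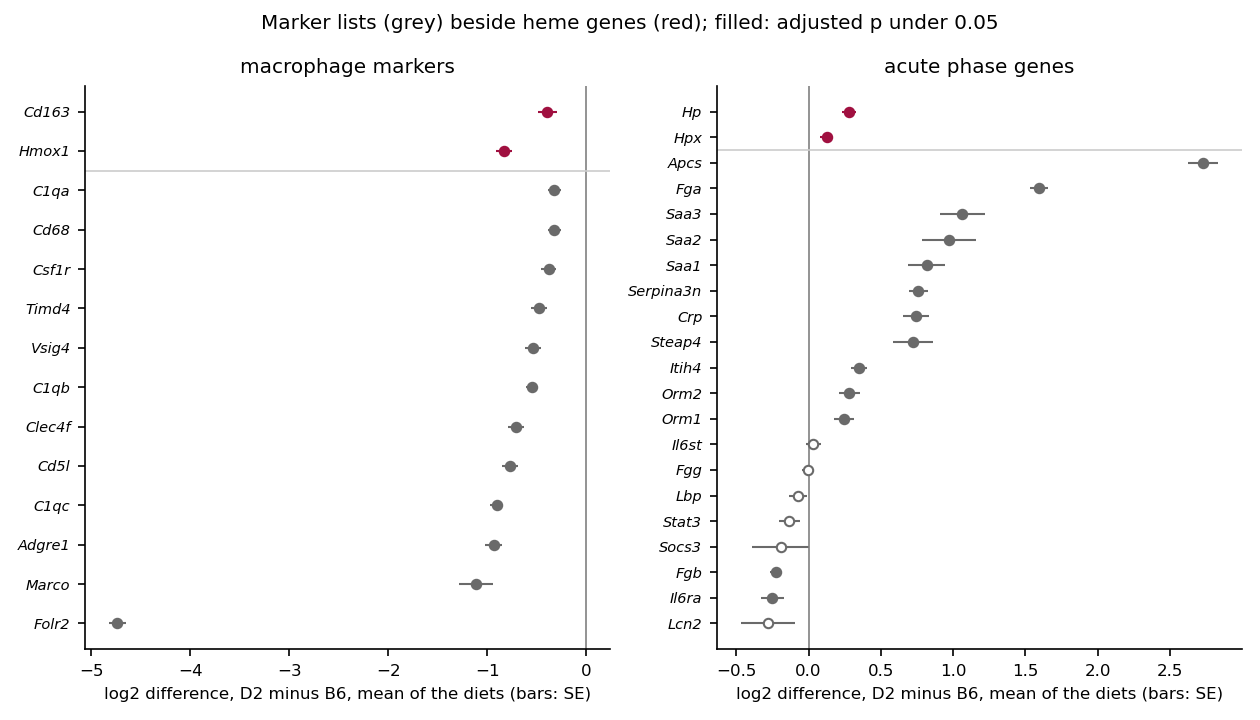
Log2 difference of D2 minus B6 averaged over diets (x axis, bars are limma standard errors) for 12 macrophage markers beside Hmox1 and Cd163, and for 19 acute phase genes beside Hp and Hpx. Filled points have an adjusted p under 0.05. All 12 macrophage markers lie below 0, and of the acute phase genes 11 are called higher and 2 lower.

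Iron deficiency moved 1 member past the test. In D2, Hp was higher on the deficient than on the balanced diet, and 1 of 8 members called stands beside 4.68% of all genes, or 1.78% in that direction. The D2 mice on the deficient diet had Hp levels of 18.36, 18.41, 18.31, 18.31 and 18.36, and those on the balanced diet 18.21, 17.90, 18.04, 18.21 and 17.95. The groups did not overlap, a pattern that 6.51% of all genes showed in this comparison. The difference was 0.29 (SE 0.084, limma adjusted p = 0.0456), a 1.22-fold rise. In B6 the Hp difference was -0.02 with a 95% interval of -0.19 to 0.16, and the strain difference of the effect was 0.30 (limma adjusted p = 0.599), which did not pass.

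The Hp call in D2 was close to the threshold. It passed under 8 of 15 other settings and with 14 of 30 mice left out in turn, where the adjusted p of limma ran from 0.0340 to 0.123. Among the mice compared, it was lost without any of the 5 D2 deficient mice (differences of 0.27 to 0.30) and without D2 balanced mouse 2, 3 or 5 (0.25, 0.28 and 0.26). It was also lost without B6 balanced mouse 2 or 5, B6 enriched mouse 4, B6 deficient mouse 2 or 4, or D2 enriched mouse 2, 3 or 4, none of which enters the difference itself. It was also lost with scaling to the 75th percentile (0.19), without normalization between arrays (0.20), with slide as a block (0.28) and with the groups fitted alone (0.29). Within scan days 1, 2 and 3 it was 0.20, 0.29 and 0.39, from 1, 2 and 2 deficient and 1, 3 and 1 balanced mice.

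Hpx in D2 read 17.75, 17.75, 17.75, 17.83 and 17.85 on the deficient diet and 17.50, 17.75, 17.57, 17.57 and 17.48 on the balanced diet. All but 1 balanced mouse, which reached the lowest deficient level, lay below the deficient group, and the difference of 0.21 did not pass (limma adjusted p = 0.130). It did pass with cyclic loess (0.29), slide as a block (0.28) or scan day as a block (0.24). Among other acute phase genes, deficiency in D2 raised Itih4 by 0.36 and lowered none of the 19, while averaged over strains 2 rose and 3 fell, with Saa3 at -0.77, Saa2 at -0.74, Saa1 at -0.59 and Stat3 at 0.36.

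The mean of Hmox1 was lowest on the balanced diet in both strains, though no diet comparison of it passed. In B6 its levels were 11.08, 11.38, 11.37, 11.43 and 12.01 on the deficient diet, 11.51, 10.94, 10.90, 11.14 and 11.25 on the balanced diet and 11.15, 11.56, 11.89, 11.34 and 11.41 on the enriched diet. In D2 they were 10.52, 10.58, 10.79, 10.67 and 10.80, then 10.26, 10.58, 10.14, 10.37 and 10.46, and 10.63, 10.56, 10.51, 10.47 and 10.57. The groups overlapped in each strain. Averaged over strains, deficiency differed from balance by 0.31 (SE 0.099, limma adjusted p = 0.0525) and enrichment by 0.25 (limma adjusted p = 0.210), and neither passed. The first passed without B6 balanced mouse 1, B6 deficient mouse 1 or D2 balanced mouse 2 (differences of 0.35, 0.36 and 0.34), without B6 enriched mouse 1 or 3 (0.31), and with no normalization between arrays (0.36). Averaged over strains, 0 members passed for either diet, where 8.08% of all genes passed for deficiency and 2.23% for enrichment. At an unadjusted p under 0.05 there were 2 of 8 members and 4453 of 21071 genes for deficiency. For enrichment there were 3 members and 2909 genes.

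Hmox2 separated the extremes of the diet in B6. This comparison of enriched with deficient mice was added to the planned ones. In B6 the levels were 13.52, 13.55, 13.59, 13.50 and 13.46 on the enriched diet and 13.31, 13.22, 13.24, 13.20 and 13.22 on the deficient diet, with 13.51, 13.30, 13.28, 13.22 and 13.39 on the balanced diet, whose mean lay between them. The enriched and deficient groups did not overlap, as for 5.79% of all genes. The Hmox2 difference in B6 was 0.29 (SE 0.062, limma adjusted p = 0.00467), and 1 member was called where 5.49% of all genes were. Averaged over strains Hmox2 differed by 0.19 (limma adjusted p = 0.00611), again 1 member called beside 8.84% of genes, and in D2 by 0.09 (limma adjusted p = 0.587), with 0 members called beside 3.45%. With no normalization between arrays neither the B6 value (0.23) nor the mean of the strains (0.09) passed, and with slide as a block the latter (0.16) did not. Within scan days 2 and 3 the B6 value was 0.33 and 0.25, from 1 and 4 enriched and 3 and 2 deficient mice. Against the balanced diet, enrichment in B6 gave 0.18 (limma adjusted p = 0.0820), which passed without B6 balanced mouse 1 (0.23). Between the enriched and deficient diets in D2, the 8 members differed by -0.27 to 0.35. At an unadjusted p under 0.05 this comparison held 4 of 8 members and 3072 of 21071 genes in D2, beside 1 and 3591 in B6.

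Blvrb did not pass for deficiency in either strain. In B6 the levels were 14.25, 13.94, 14.38, 13.95 and 14.07 on the deficient diet and 13.92, 14.05, 13.77, 13.84 and 14.02 on the balanced diet. In D2 they were 13.56, 13.53, 13.65, 13.49 and 13.72 on the deficient diet and 13.72, 13.65, 13.72, 13.71 and 14.24 on the balanced diet. The groups overlapped in both strains, and D2 balanced mouse 5 stood above the other 4 mice of its group. The differences were 0.20 in B6 and -0.22 in D2, neither passing, and the strain difference of the effect was -0.42 (limma adjusted p = 0.555). Without D2 balanced mouse 5 the D2 value was -0.11 and the strain difference of the effect -0.31 (limma adjusted p = 0.676). By limma 0 members passed for a strain difference of the deficiency effect, where 0.019% of all genes did, or of the enrichment effect, where 1.11% did. At an unadjusted p under 0.05 there were 2 of 8 members and 1500 of 21071 genes for the former. For the latter there were 0 members and 2471 genes.

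The other diet comparisons called 0 of 8 members by limma. For enrichment 5.83% of all genes were called in B6 and 0.0902% in D2, and for deficiency 1.79% in B6. At an unadjusted p under 0.05 the counts, of 8 members and of 21071 genes, were 3 and 3724, 0 and 1158, and 1 and 2655. For deficiency in D2, described above, they were 4 members and 3723 genes. Blvra, Lrp1 (brighter probe) and Cd163 differed from the balanced diet by -0.28 to 0.23 within the strains, and none of these passed. The lowest was Lrp1 in D2 on the deficient diet at -0.28 (limma adjusted p = 0.144), where its levels were 12.92, 12.81, 12.68, 12.75 and 13.12 beside 13.31, 13.14, 13.19, 13.14 and 12.88 on the balanced diet. It passed after scaling to the 75th percentile (-0.36). The dimmer Lrp1 probe went the other way in this comparison, at 0.40 in D2, and was -0.44 in B6 (limma adjusted p = 0.402 and 0.479), and the mean of both probes gave 0.06 in D2. Over all 8 genes and both strains, the 95% intervals of the differences from the balanced diet lay between -0.49 and 0.61. In data simulated for deficiency in D2, 50 genes were changed by each of 0.3, 0.5, 1 and 2. The test found 10% of those changed by 0.3 and 80% of those changed by 1. The changed genes were drawn from all tested genes and were fewer than the 986 called in the real comparison. These shares therefore describe that setting and not the 8 members.

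**Figure D5:**
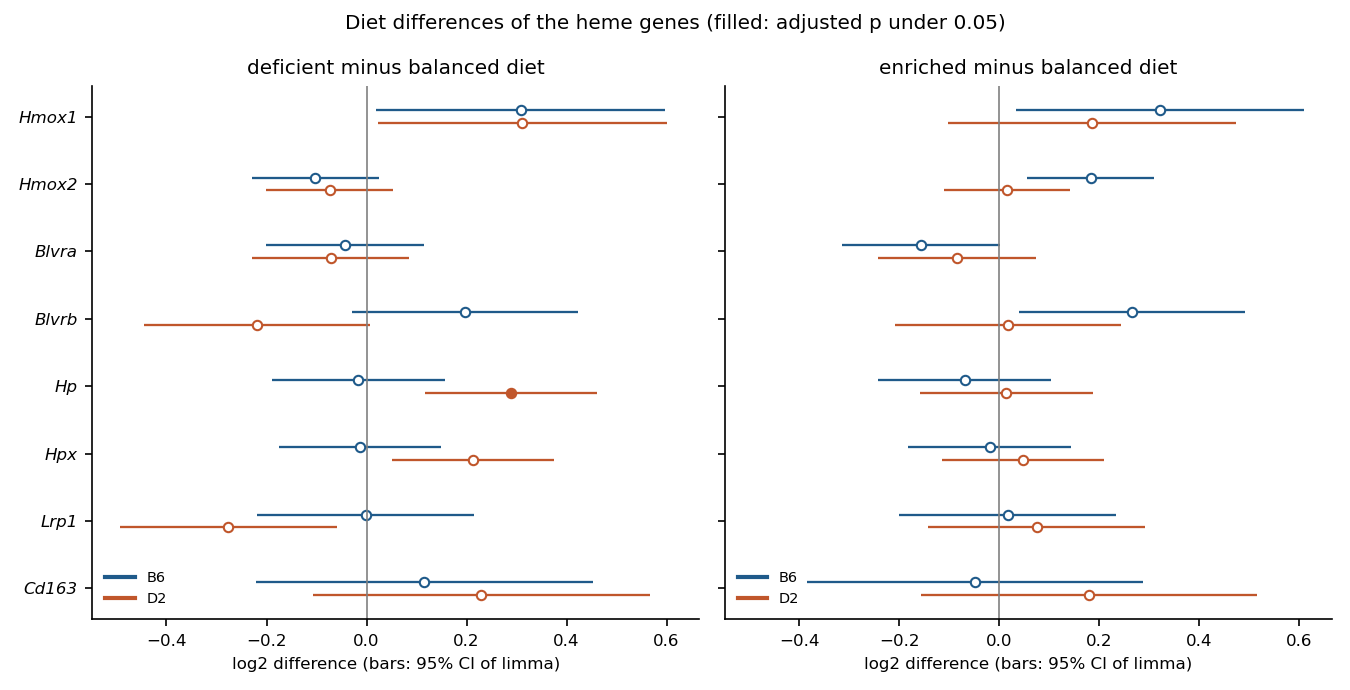
Log2 difference from the balanced diet (x axis) for the deficient diet at the left and the enriched diet at the right, in B6 and D2, with the 95% confidence interval of limma as bars. The filled point, Hp in D2 on the deficient diet, is the one with an adjusted p under 0.05.

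For genes around the pathway, more calls fell between the strains than between diets, as over all tested genes. Averaged over diets, 50.1% of all tested genes passed between the strains. Averaged over strains, 8.08% passed for deficiency and 2.23% for enrichment. Within a strain, 0.0902% to 5.83% passed for a diet against the balanced one. Of 13 genes of heme transport and of the disposal of bilirubin and its conjugates, 12 were tested, and 4 were higher and 5 lower in D2 over the diets. Ugt1a1, which conjugates bilirubin, was lower by -1.13, Abcc2, which exports the conjugates into bile, by -0.71, and Slc48a1, a heme transporter of lysosomes, by -0.69, while Flvcr2, a heme transporter, was higher by 0.60. Ugt1a1 shares exons with other genes of its locus, so its level is uncertain. In D2, deficiency raised Abcc2 by 0.45 and Ugt1a1 by 0.35 and lowered Slc46a1, a heme and folate transporter, by -0.39, and in B6 enrichment raised Abcc3, a basolateral exporter of conjugates, by 0.56 and lowered Abcg2, a porphyrin exporter, by -0.40. Averaged over strains, 2 rose and 1 fell with deficiency and 1 rose with enrichment.

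Of 6 regulators of Hmox1, 1 was higher and 1 lower in D2. Maff, a small Maf protein, differed by 1.18 and Nfe2l2, which encodes the activator Nrf2, by -0.18. Deficiency averaged over strains raised Keap1, the inhibitor of Nrf2, by 0.30, and enrichment in B6 raised Nfe2l2 by 0.34. Among 8 enzymes of heme synthesis, 3 were higher and 3 lower in D2, among them Alad at 1.60, Uros at -0.25 and Urod at -0.14. Enrichment in B6 lowered Alas1, the first enzyme of heme synthesis, by -0.97. Of 5 partners and other plasma binders of heme, none passed between the strains over the diets or for any diet against the balanced one.

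Among the 28 pairs of members, levels of 30 mice with strain means removed were correlated for 3 pairs after Benjamini-Hochberg adjustment of permutation p-values (100000 resamples, two-sided). Hmox1 and Cd163 rose and fell together (r = 0.61, permutation p = 0.00042, adjusted p = 0.0118; rho = 0.63, permutation p = 0.00023), with r = 0.56 without the 2 mice farthest in Hmox1 and r = 0.55 and 0.65 on scan days 2 and 3. Hp and Hpx did so too (r = 0.53, permutation p = 0.00266, adjusted p = 0.0248; rho = 0.56, permutation p = 0.00139), with r = 0.54 without the 2 mice farthest in Hp and r = 0.30 and 0.73 on those days. Blvrb and Hp were opposed (r = -0.53, permutation p = 0.00228, adjusted p = 0.0248; rho = -0.45, permutation p = 0.0133), with r = -0.55 without 2 mice, but r = 0.01 on scan day 2 and -0.70 on scan day 3, so the relation did not hold within both. Diet groups were pooled here, and the genes share an array in each mouse.

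Up to 3 genes most like each member over the 30 mice, by r after strain means were removed, are given as a description. They were Entpd5 (r = 0.70, rho = 0.67), Stx18 and Pi4ka for Hmox1, and Tmem268 (r = 0.82, rho = 0.76), Nrbp2 and Cpm for Hmox2. For Blvra they were Prim2 (r = 0.71, rho = 0.66) and Psmb1, and for Blvrb Tmsb15l (r = 0.73, rho = 0.63), Cdc34 and Srr. For Hp they were Niban2 (r = 0.79, rho = 0.81), Colgalt2 and Crnkl1, and for Hpx Bub3 (r = 0.74, rho = 0.71), Vps37c and Arhgef19. For Lrp1 they were Sytl4 (r = 0.77, rho = 0.76), Man1b1 and Slc35a1, and for Cd163 Trpm2 (r = 0.74, rho = 0.62), Ccl6 and Gja4.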

How the data were processed

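Per the labels, total RNA of each liver was amplified, labelled with Cy3 and hybridized to a 1-colour array. The deposited files hold the scanner software's background-subtracted intensity per spot on a linear scale, not normalized between arrays. The submitters' text names quantile normalization and a filter on dim genes. Here, control spots and spots with an outlier mark were dropped, spots of a probe were averaged, and the intensities were quantile normalized, raised to a floor of 13.9 and put on the log2 scale. Probes well above background in 3 or more mice of each strain were kept (29986 probes), and the brightest kept probe stood for a gene. Names came from RefSeq (GRCm38.p6) by accession for 22951 probes and by symbol for 6659, and 11564 kept the name in the file. All 30 arrays entered 1 fit of 6 group means (limma 3.58.1, R 4.3.3), with Benjamini-Hochberg adjustment over 21071 genes at 0.05. Mice are separate animals, and the mouse numbers used here follow accession order and pair nothing. Hp and Hpx rank 23 and 51 from the brightest of 41174 probes, where quantile normalization gives values in steps shared by several mice. The fit was tested on simulated data. Other normalizations, background correction, filters, probe rules, models, blocks by slide and by scan day, single scan days and leaving out each mouse were tried. All probes of the members are described, and from every other list up to 4 called genes with the largest difference per comparison are named, for the comparisons described, as are up to 3 genes most like each member. Some genes that this rule would name are not reported here. The members and lists were chosen with earlier results of these data known.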

Additional observations from a re-analysis of the deposited data

Results flagged for a closer look

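Of 48 sets of 5 mice (each gene in each group), 2 held a mouse far from the others, by Dixon's test at the 5% level, at which about 1 set in 20 is picked by chance. Blvra in B6 deficient mouse 5 stood at a log2 level of 10.52, beside 10.19 to 10.25 in the other 4 mice. Blvrb in D2 balanced mouse 5 stood at 14.24, beside 13.65 to 13.72 in the other 4 mice. The effect of deficiency on Blvrb differed between the strains by -0.42 (D2 minus B6, limma adjusted p = 0.555), which did not pass the test. Every deficient B6 mouse lay above the balanced B6 mean and every deficient D2 mouse below the balanced D2 mean, but the latter needs D2 balanced mouse 5. Without that mouse the highest deficient D2 mouse lies above the balanced D2 mean, and the D2 effect goes from -0.22 to -0.11.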

How the results depend on the processing

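Of the values of single members under the alternatives, 5184 kept their side of the threshold, 80 lost and 37 gained a call, and 3 changed sign. A sign change where neither setting passed is counted as kept. Most of these values were not called in the main fit and could not lose a call. The 80 losses therefore belong to the called values alone, and the number kept does not measure how stable the calls are. With the mean of both probes, Lrp1 in D2 against B6 became -0.38 over the diets, -0.51 on the balanced and -0.43 on the enriched diet, each passing, because the dimmer probe then enters. The cause of the other changes was not tested, save that single scan days hold fewer mice.

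Counts of members called that moved by over 1.5 times were as follows, with some smaller moves and some unchanged counts beside them. Values on single scan days often rest on 1 mouse in a group and say little. For deficiency averaged over strains 1 was called without normalization between arrays, and for enrichment in B6 1 with no filter on dim probes and 1 without moderated variances. For deficiency in D2 the count was 2 with cyclic loess and with scan day as a block, and 0 without normalization, with the groups fitted alone and on scan day 1, 2 or 3. It stayed at 1 with the 75th percentile, where Lrp1 passed and Hp did not, and with slide as a block, where Hpx passed and Hp did not. For D2 against B6 over the diets 4 were called on scan day 2 and 3 on scan day 3, and 6 with the 75th percentile (without Hmox2) and with cyclic loess, no normalization, slide or scan day as a block (each without Hpx). On the balanced diet 0 were called on scan day 1 and 1 on scan day 3. On the enriched diet 3 were called with slide and with scan day as a block (Blvrb and Hp lost), 0 on scan day 2 and 2 on scan day 3, and on the deficient diet 2 on each of scan days 2 and 3. For the strain difference of the enrichment effect 1 was called without normalization. Leaving out 1 mouse gave 0 to 1 for deficiency averaged over strains, 0 to 1 for enrichment in B6 and 0 to 1 for deficiency in D2. Without normalization the median of all genes between the strains was -0.17 and 28.6% of the calls were higher in D2, beside 51.7% of the calls with it. No paired analysis was possible because the groups compared share no number: the labels give each mouse a code, and a code number recurs only between groups that differ in both strain and diet.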
